A study of Homo sapiens with 12 samples.

Results

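The inflammatory cytokine and chemokine genes CXCL1, CXCL2, CXCL3, CXCL5, IL8, CCL20, IL6, LIF, IL1A and IL18 were examined in PANC-1, a human pancreatic cancer cell line. These 10 genes of 23284 listed were found by their symbols, with IL8 under its older name for CXCL8. RNA sequencing gave 12 libraries in 6 groups of 2. All cells carried ZsGreen fused to the degron of ornithine decarboxylase, a reporter that brightens when proteasome activity is low, and had been selected for the vector. Degron (-) cells were the infected line, in which ZsGreen-positive cells were rare. Degron (++) cells were the brightest cells of a line enriched by repeated sorting and culture. Each population was sampled unirradiated (0 Gy) at 48 h, and after 4 Gy at both 30 h and 48 h. No unirradiated library was taken at 30 h, so the only dose comparison is at 48 h, and the starting point of the hours is not stated. The 6 libraries taken as degron (-) are called ZsGreen-negative in their titles but d+ in their descriptions, and ZsGreen itself is not a listed gene, so the sort could not be checked. All libraries come from 1 cell line, and nothing in the labels ties the 2 libraries of a group to separate cultures. P-values therefore measure the spread between these libraries, which may be technical.

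NF-kB is a family of transcription factors held in the cytoplasm by IkB proteins, which are destroyed by the proteasome after phosphorylation by the IKK kinases. Once free, the subunits bind short DNA sites and switch on genes for secreted alarm signals, among them neutrophil-attracting chemokines, IL-6 and the IL-1 family, and genes for the inhibitors that end the response. Ionizing radiation is a known activator of NF-kB, and pancreatic cancer cells are known to secrete many of these factors.

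The genes of CXCL1, CXCL2, CXCL3, CXCL5 and IL8 lie on chromosome 4, CCL20 and IL1A on 2, IL6 on 7, LIF on 22 and IL18 on 11. RefSeq promoter sequences (GRCh38.p14) were at hand for 8 of the 10 genes, and none was matched for LIF or IL18. The following windows are shown because they hold the NF-kB-type element that most of these genes share, printed in capitals with 25 bases on either side, 5′ to 3′ on the strand of the gene.
CXCL1 (chr4:73869289-73869348, plus strand): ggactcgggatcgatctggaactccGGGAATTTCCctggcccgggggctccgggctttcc
CXCL2 (chr4:74099239-74099298, minus strand): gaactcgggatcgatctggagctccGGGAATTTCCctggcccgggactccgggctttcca
CXCL3 (chr4:74038734-74038793, minus strand): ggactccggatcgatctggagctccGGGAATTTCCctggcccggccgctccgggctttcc
CXCL5 (chr4:73998734-73998793, minus strand): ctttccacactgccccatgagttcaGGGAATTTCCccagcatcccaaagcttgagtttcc
IL8 (chr4:73740453-73740511, plus strand): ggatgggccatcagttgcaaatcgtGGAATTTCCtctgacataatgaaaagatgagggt
CCL20 (chr2:227813738-227813797, plus strand): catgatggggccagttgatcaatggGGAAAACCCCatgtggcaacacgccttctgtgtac
IL6 (chr7:22727102-22727161, plus strand): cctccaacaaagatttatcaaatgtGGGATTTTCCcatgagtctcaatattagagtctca

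The 250 bases before the start of each gene were searched on both strands for the NF-kB consensus of 10 bases and for GGAATTTCC, which overlaps some of its matches. In CXCL1, CXCL2, CXCL3 and CXCL5 the stretch in capitals matched the consensus on the strand of the gene. An overlapping stretch that starts at its next base matched on the opposite strand. CCL20 matched on the strand opposite to the gene, IL6 matched on its own strand, IL8 matched GGAATTTCC but not the consensus, and neither of the 2 IL1A promoters matched. Of 35116 RefSeq promoters, 5.21% held the consensus and 0.413% held GGAATTTCC in the same 250 bases. The 10 genes were chosen as NF-kB type secreted factors, so their matches cannot be weighed against these shares. The windows of CXCL1, CXCL2 and CXCL3 are nearly the same sequence. CXCL1 was lower and CXCL2 higher in degron (++) cells, as described below, and the part of this element was not tested. A match is a description of letters and not a measured binding site.

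Expression was deposited as FPKM, fragments scaled to exon length and to the number of mapped reads, so levels can be set side by side between genes, but the number of reads behind a value is unknown. Sums of FPKM were 829654 to 916877 in degron (++) libraries and 707273 to 763064 in degron (-) libraries, and the small RNA gene MIR622 alone held 28.6% to 30.0% and 22.5% to 27.1% of them. The defining ductal keratins were high in every library, with KRT8 at 2488 to 2981 FPKM in degron (++) and 1732 to 2118 in degron (-). KRT7 was 1142 to 1437 and 133 to 272 FPKM in the same order, and the ductal factor SOX9 17.4 to 22.9 and 35.6 to 43.9. Of 6 leukocyte markers only CD14 passed the filter. Together they came to 1.61 to 2.24 FPKM in degron (++) and 0.407 to 1.11 in degron (-) libraries, with CD3E listed at 0 throughout and PTPRC (CD45) at no more than 0.055. The 5 fibroblast markers summed to 0.620 to 0.946 in degron (++) and 36.6 to 52.5 in degron (-), which was nearly all COL1A1, while COL1A2 and DCN were listed at 0 in all libraries. The 4 endothelial markers summed to at most 0.556. KRT18 was 2493 to 2889 FPKM in degron (++) and 1658 to 1962 in degron (-), and KRT19 816 to 951 and 667 to 774. The endothelial marker CDH5 was 0.258 to 0.516 and 0.018 to 0.065. KRT7, KRT8, KRT18, KRT19, SOX9, CD14, COL1A1 and CDH5 thus moved with the populations, as 71.3% of all tested genes did by not overlapping. Their part in the results was not tested. Genes were tested with limma on log2(FPKM + 1), a scale that understates the change of low genes, if they reached 1 FPKM in at least 2 libraries. CXCL3 and CXCL5 did not, so 8 of the 10 genes were tested. CXCL1 passed the filter only through degron (-) libraries and CCL20 only through irradiated degron (++) libraries. The tally of tested genes is thus no evidence by itself, and the filter favoured higher values of these genes in those libraries.

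The populations differed in both directions. CXCL1 and LIF were lower in degron (++) than in degron (-) cells in every condition, whereas CXCL2, IL6 and IL18 were higher in every condition, each with no overlap between the 6 libraries of one population and the 6 of the other. In bulk RNA, fewer cells that express a gene and less RNA per cell cannot be told apart. IL18 was the most abundant of the 10 genes in every library, at 42.4 to 127 FPKM, and the chemokines were low, with no value above 8.29 FPKM.

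**Figure D1:**
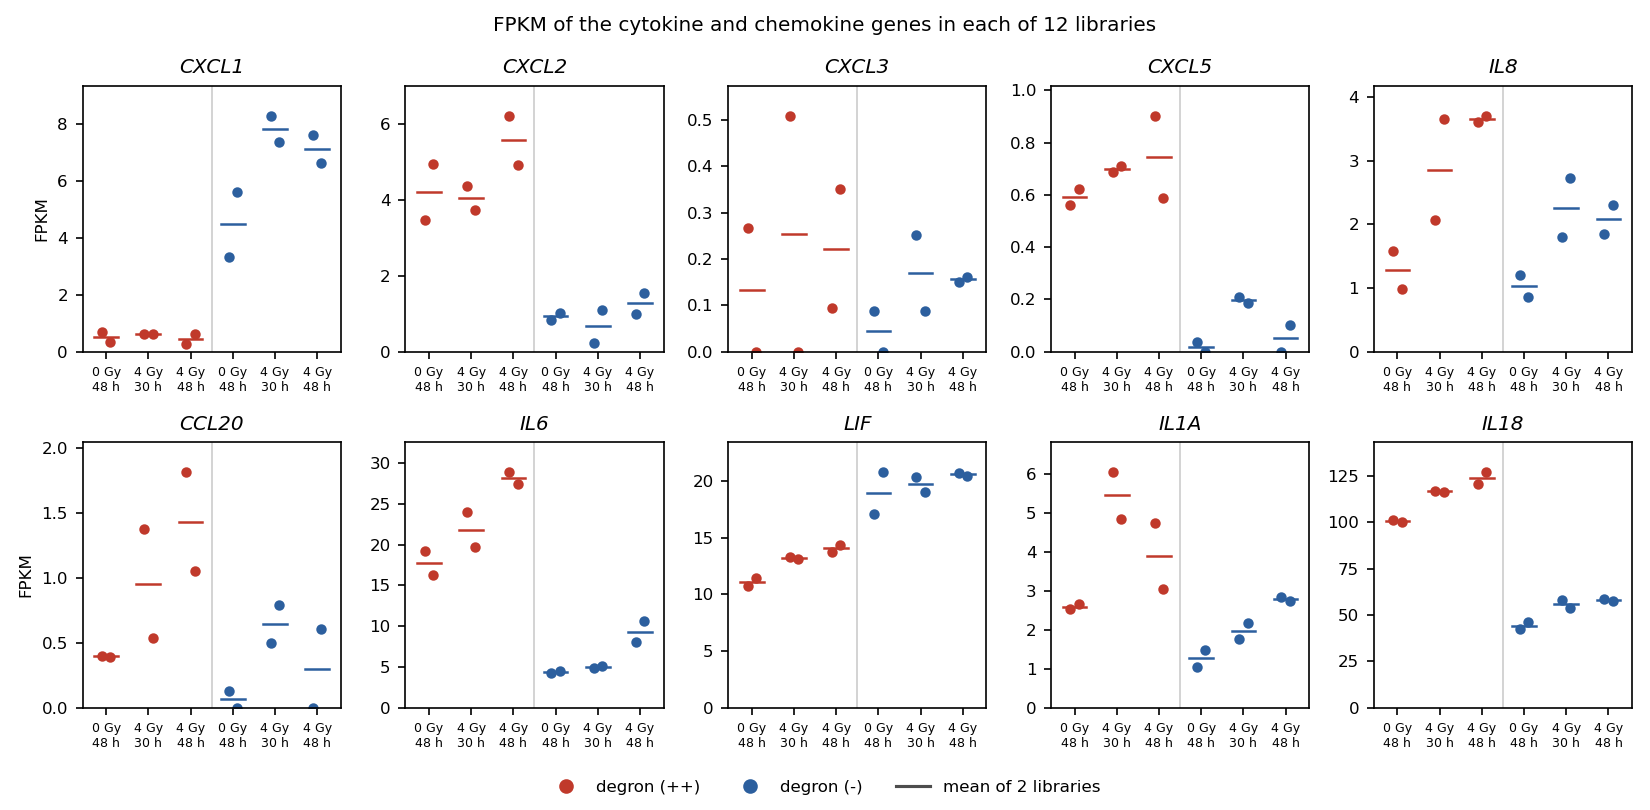
FPKM (linear vertical axis from 0, with its own scale in each panel) of the 10 genes in the 12 libraries, with degron (++) on the left and degron (-) on the right of each panel. Points are libraries and bars are means of 2 libraries. CXCL1 and LIF lie higher in degron (-), and CXCL2, CXCL5, IL6 and IL18 lie higher in degron (++). CXCL3, IL8, CCL20 and IL1A overlap between the populations.

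CXCL1 and CXCL2 encode closely related chemokines that attract neutrophils through the receptor CXCR2. In degron (++) cells CXCL1 was 0.702 and 0.342 FPKM at 0 Gy, 0.602 and 0.613 at 4 Gy and 30 h, and 0.276 and 0.603 at 4 Gy and 48 h. CXCL1 in degron (-) cells was 3.34 and 5.60 FPKM at 0 Gy, 8.29 and 7.36 at 4 Gy and 30 h, and 7.61 and 6.61 at 4 Gy and 48 h. Every degron (-) library was thus above every degron (++) library. The mean CXCL1 FPKM was 8.56-fold, 12.9-fold and 16.2-fold lower in degron (++) cells in these conditions. Every degron (++) value was under 1 FPKM, so the size of these ratios is uncertain. CXCL1 passed the filter only through degron (-) libraries, so the filter favoured a lower value in degron (++) cells. The log2 differences were -1.82 (SE 0.202, limma adjusted p = 2.86e-05), -2.46 (SE 0.202, adjusted p = 3.36e-06) and -2.50 (SE 0.202, adjusted p = 3.61e-06).

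CXCL2 went the other way. In degron (++) cells CXCL2 was 3.48 and 4.95 FPKM at 0 Gy, 4.36 and 3.72 at 4 Gy and 30 h, and 6.23 and 4.91 at 4 Gy and 48 h. CXCL2 in degron (-) cells was 0.827 and 1.03 FPKM at 0 Gy, 0.238 and 1.09 at 4 Gy and 30 h, and 0.999 and 1.54 at 4 Gy and 48 h. The populations did not overlap. The log2 difference was 1.42 (SE 0.247, limma adjusted p = 0.000582), 1.65 (SE 0.247, adjusted p = 0.000215) and 1.54 (SE 0.247, adjusted p = 0.000373), or 4.54-fold, 6.10-fold and 4.39-fold in mean FPKM.

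Within a library, CXCL1 was 0.0443 to 0.202 times CXCL2 in degron (++) cells, and 4.04 to 34.8 times CXCL2 in degron (-) cells. How the authors' counting treated reads that match several of these related genes is not given in the sources used here. In GENCODE release 29 transcripts, 1.34% of the 50-base stretches of CXCL1 and 11% of those of CXCL2 occurred in another of CXCL1, CXCL2 and CXCL3, and no stretch of 100 bases did. The read length is not given in the sources used here. When CXCL1, CXCL2 and CXCL3 were summed, the sum ranged from 4.33 to 6.59 FPKM in degron (++) and from 4.25 to 8.78 in degron (-) cells. The log2 difference of this sum was -0.11 (limma adjusted p = 0.551) at 0 Gy, -0.72 (adjusted p = 0.00318) at 4 Gy and 30 h, and -0.40 (adjusted p = 0.0513) at 4 Gy and 48 h. The differences of the sum were thus smaller than those of CXCL1 or CXCL2 alone, and of the single conditions only 30 h passed the threshold. In the mean of the 3 conditions the sum was lower in degron (++) cells by -0.41 (limma adjusted p = 0.00286), which passed.

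CXCL3 and CXCL5, further ligands of CXCR2, stayed under 1 FPKM in every library. CXCL3 reached 0.510 FPKM in degron (++) and 0.251 in degron (-) cells at most, and it was listed at 0 in 3 libraries. CXCL5 was 0.562 and 0.621 FPKM at 0 Gy, 0.686 and 0.710 at 4 Gy and 30 h, and 0.904 and 0.589 at 4 Gy and 48 h in degron (++) cells. Degron (-) cells had CXCL5 at 0.037 and 0, 0.210 and 0.185, and 0 and 0.102 FPKM in the same order. All degron (++) libraries were above all degron (-) libraries for CXCL5. In a fit without the filter on low values, the log2 difference averaged over the 3 conditions was 0.63 for CXCL5 (SE 0.0472, limma adjusted p = 3.74e-06) and 0.09 for CXCL3 (SE 0.115, adjusted p = 0.528).

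IL8 (CXCL8), the classic neutrophil chemokine, was 1.58 and 0.988 FPKM at 0 Gy, 2.06 and 3.65 at 4 Gy and 30 h, and 3.61 and 3.71 at 4 Gy and 48 h in degron (++) cells. Degron (-) cells had IL8 at 1.21 and 0.856 FPKM at 0 Gy, 1.79 and 2.72 at 4 Gy and 30 h, and 1.85 and 2.30 at 4 Gy and 48 h. The populations overlapped, and separated only at 4 Gy and 48 h. The log2 difference between populations was 0.16 (95% confidence interval -0.34 to 0.66, limma adjusted p = 0.523) at 0 Gy, 0.23 (-0.28 to 0.73, adjusted p = 0.364) at 4 Gy and 30 h, and 0.60 (0.10 to 1.11, adjusted p = 0.0327) at 4 Gy and 48 h. The last call was lost when any of the 4 libraries compared was left out, with adjusted p = 0.0871 and 0.101 without degron (++) replicate 1 and 2, and 0.148 and 0.0519 without degron (-) replicate 1 and 2. At 0 Gy and at 30 h the sign of the IL8 difference turned under some alternatives, to -0.03 and -0.07.

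CCL20, the ligand of CCR6 that draws in Th17 cells and immature dendritic cells, was 0.401 and 0.390 FPKM at 0 Gy, 1.38 and 0.533 at 4 Gy and 30 h, and 1.82 and 1.05 at 4 Gy and 48 h in degron (++) cells. CCL20 in degron (-) cells was 0.130 and 0, 0.5 and 0.789, and 0 and 0.604 FPKM in the same order. The populations overlapped when all conditions were pooled. CCL20 passed the filter only through irradiated degron (++) libraries, so the filter favoured a higher value there. The log2 difference was 0.92 at 4 Gy and 48 h (SE 0.269, limma adjusted p = 0.0116), but the adjusted p was 0.0849 without degron (++) replicate 1 and 0.0934 without degron (-) replicate 1. At 0 Gy the difference was 0.39 (95% confidence interval -0.22 to 1.0) and at 4 Gy and 30 h 0.22 (-0.39 to 0.83), neither past the threshold. At 0 Gy the call changed when only the 4 libraries compared were fitted (adjusted p = 0.0167, range over its alternatives 0.0167 to 0.452).

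IL6 and LIF encode cytokines of one family, which signal through gp130 (IL6ST) to JAK kinases and STAT3. Here they differed in opposite directions. In degron (++) cells IL6 was 19.3 and 16.3 FPKM at 0 Gy, 24.0 and 19.7 at 4 Gy and 30 h, and 28.9 and 27.4 at 4 Gy and 48 h. Its values in degron (-) cells were 4.30 and 4.55 FPKM at 0 Gy, 4.85 and 5.12 at 4 Gy and 30 h, and 8.0 and 10.7 at 4 Gy and 48 h. Even the highest degron (-) library was below the lowest degron (++) library. The mean IL6 FPKM was 4.02-fold, 4.38-fold and 3.02-fold higher in degron (++) cells, with log2 differences of 1.79 (SE 0.133, limma adjusted p = 1.88e-06), 1.93 (SE 0.133, adjusted p = 1.03e-06) and 1.51 (SE 0.133, adjusted p = 6.59e-06).

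LIF was 10.7 and 11.5 FPKM at 0 Gy, 13.3 and 13.1 at 4 Gy and 30 h, and 13.8 and 14.4 at 4 Gy and 48 h in degron (++) cells. Degron (-) cells had LIF at 17.1 and 20.8 FPKM at 0 Gy, 20.4 and 19.0 at 4 Gy and 30 h, and 20.7 and 20.4 at 4 Gy and 48 h. All degron (-) libraries were above all degron (++) libraries. The mean LIF FPKM was 1.71-fold, 1.49-fold and 1.46-fold lower in degron (++) cells, with log2 differences of -0.72 (SE 0.0809, limma adjusted p = 3.33e-05), -0.54 (SE 0.0809, adjusted p = 0.000213) and -0.52 (SE 0.0809, adjusted p = 0.000306).

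IL1A and IL18 belong to the IL-1 family. IL-1 alpha acts as an alarmin that can stay bound to the cell or be set free on damage, and IL-18 is made as an inactive precursor that caspase-1 cleaves. In degron (++) cells IL1A was 2.54 and 2.66 FPKM at 0 Gy, 6.06 and 4.86 at 4 Gy and 30 h, and 4.75 and 3.05 at 4 Gy and 48 h. IL1A in degron (-) cells was 1.06 and 1.48 FPKM at 0 Gy, 1.77 and 2.17 at 4 Gy and 30 h, and 2.85 and 2.73 at 4 Gy and 48 h. Within each condition the degron (++) libraries were higher, but over all conditions the populations overlapped. The log2 difference was 0.67 (SE 0.169, limma adjusted p = 0.00531) at 0 Gy, 1.12 (SE 0.169, adjusted p = 0.000231) at 4 Gy and 30 h, and 0.35 (SE 0.169, adjusted p = 0.0888) at 4 Gy and 48 h. At this last point the adjusted p was 0.00794 and the difference 0.60 without degron (++) replicate 2, the lower of its pair.

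IL18 was 101 and 100.2 FPKM at 0 Gy, 117 and 116 at 4 Gy and 30 h, and 121 and 127 at 4 Gy and 48 h in degron (++) cells. Degron (-) cells had IL18 at 42.4 and 46.1 FPKM at 0 Gy, 58.3 and 54.0 at 4 Gy and 30 h, and 58.4 and 57.7 at 4 Gy and 48 h. The lowest degron (++) library was well above the highest degron (-) library. The log2 difference was 1.17 (SE 0.0496, limma adjusted p = 4.84e-08), 1.04 (SE 0.0496, adjusted p = 8.66e-08) and 1.08 (SE 0.0496, adjusted p = 9.21e-08), or 2.27-fold, 2.08-fold and 2.14-fold in mean FPKM.

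**Figure D2:**
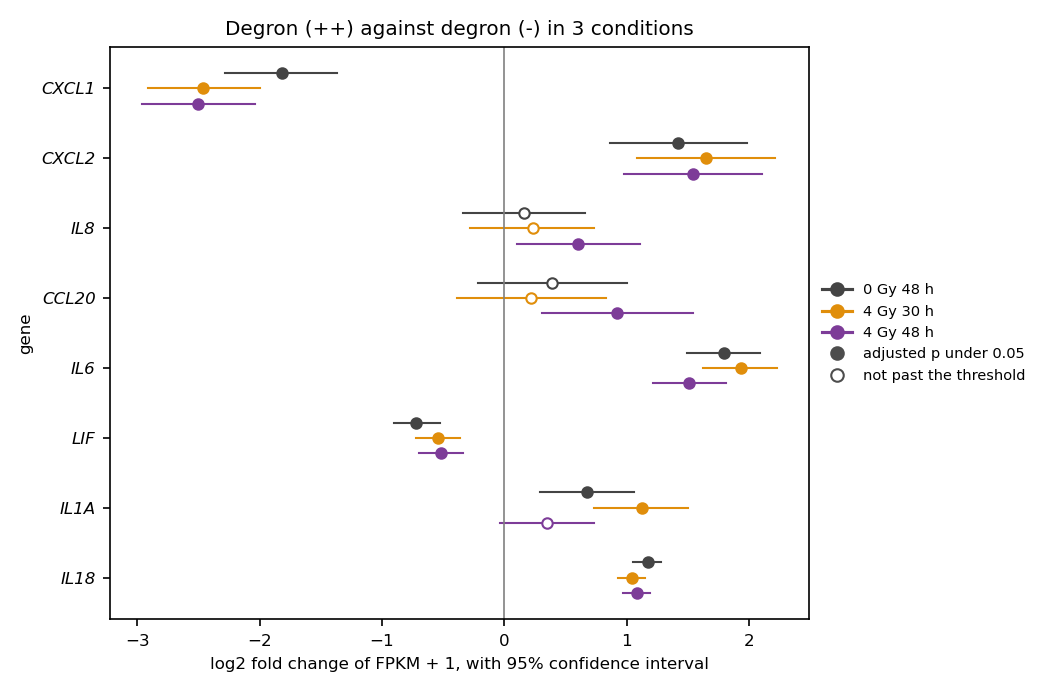
Log2 difference of FPKM + 1 between degron (++) and degron (-) cells (horizontal axis) for the 8 tested genes (vertical axis) in 3 conditions, with 95% confidence intervals from limma. Filled points have an adjusted p under 0.05. CXCL1 and LIF lie left of 0 and CXCL2, IL6 and IL18 right of it in every condition.

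By limma with Benjamini-Hochberg adjustment over 12946 genes, 4 of the 8 tested genes were higher in degron (++) cells at 0 Gy and 2 were lower, where 37.6% of all tested genes were higher, 40.2% lower and 77.7% past the threshold in all. At 4 Gy and 30 h the numbers were again 4 higher and 2 lower, against 38.3% and 40.8% of all genes (79.1% in all). At 4 Gy and 48 h they were 5 higher and 2 lower, against 37.1% and 39.6% (76.7% in all). Averaged over the 3 conditions all 8 tested genes passed, 6 higher and 2 lower, against 42.1% and 44.6% of all genes (86.7% in all). Of the 8, 5 did not overlap between the 6 and 6 libraries, against 71.3% of all tested genes. CXCL1, among the lower and the non-overlapping genes, passed the filter only through degron (-) libraries. CCL20, among the higher genes at 4 Gy and 48 h and in the mean, passed it only through irradiated degron (++) libraries. The places of these genes in the counts carry no weight. Most genes thus differed between these populations, and the total shares of cytokine genes past the threshold were near those of all genes. By direction, more of the 8 were higher than lower, whereas fewer of all genes were. Whether this differs from all genes was not tested. Only the size and direction of each gene's difference carry information. Rescaling each library to the same sum moved the median difference of all genes from -0.02 to -0.24 in the mean of the 3 conditions, and 34.7% rather than 48.6% of calls were then higher. CXCL1, CXCL2, IL6, LIF and IL18 kept their direction and their call under this rescaling in every condition. IL8 was at 0.17 (adjusted p = 0.254, range over its alternatives 0.00231 to 0.254) in the mean of the 3 conditions and was no longer past the threshold. Its call in that mean was also lost without any of 7 single libraries, namely replicate 1 of degron (++) and replicate 2 of degron (-) at 0 Gy, replicate 2 of degron (++) and replicate 1 of degron (-) at 30 h, and both degron (++) libraries and replicate 1 of degron (-) at 4 Gy and 48 h, with adjusted p between 0.0613 and 0.094.

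The next question was which of these genes changed with irradiation. At 48 h in degron (++) cells, 1 of the 8 tested genes rose past the threshold and 0 fell by limma, where 1.42% of all genes rose and 0.402% fell (1.82% in all). At an unadjusted p under 0.05 the number was 6, all higher after 4 Gy, where 10.2% of all genes were higher and 7.46% lower. In degron (-) cells 3 rose and 0 fell, where 3.85% of all genes rose and 0.873% fell (4.73% in all), and 5 had an unadjusted p under 0.05, against 20.9% of all genes. The 2 irradiated libraries at 48 h did not overlap the 2 unirradiated ones for 6 of the 8 genes in degron (++) cells. In degron (-) cells the same was true of 5, and all were higher after 4 Gy. Of all genes, 46.6% and 50.6% did not overlap in either direction. The 6 include CCL20, which passed the filter only through irradiated degron (++) libraries.

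IL6 rose in degron (-) cells from a mean of 4.42 to 9.34 FPKM, 2.11-fold, with a log2 difference of 0.92 (SE 0.133, limma adjusted p = 0.00789). The adjusted p was 0.0508 without 0 Gy replicate 2 and 0.0524 without 4 Gy replicate 2. In degron (++) cells IL6 went from 17.8 to 28.2 FPKM, with a log2 difference of 0.64 (95% confidence interval 0.33 to 0.94, adjusted p = 0.0530), just short of the threshold. In both populations the irradiated libraries at 48 h were above both unirradiated ones.

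IL18 rose in both populations. In degron (-) cells its mean went from 44.2 to 58.0 FPKM, a log2 difference of 0.38 (SE 0.0496, limma adjusted p = 0.00577), and this call held when any 1 of the 4 libraries was left out. In degron (++) cells it went from 101 to 124 FPKM, a log2 difference of 0.30 (SE 0.0496, adjusted p = 0.029). This call was lost without any one of the 4 libraries, with adjusted p = 0.148 and 0.116 without 0 Gy replicate 1 and 2, and 0.0848 and 0.141 without 4 Gy replicate 1 and 2. With the libraries rescaled to the same sum it was 0.23 (adjusted p = 0.227, range over its alternatives 0.027 to 0.234).

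IL1A rose in degron (-) cells from a mean of 1.27 to 2.79 FPKM, a log2 difference of 0.75 (SE 0.169, limma adjusted p = 0.045). Its adjusted p was 0.174 and 0.0973 without 0 Gy replicate 1 and 2, and 0.147 and 0.174 without 4 Gy replicate 1 and 2, so the call rests on all 4 libraries. In degron (++) cells the IL1A difference at 48 h was 0.42 (95% confidence interval 0.04 to 0.81, adjusted p = 0.248). IL8 went from a mean of 1.28 to 3.66 FPKM in degron (++) cells, 2.85-fold, with a log2 difference of 1.04 (0.54 to 1.54, adjusted p = 0.0561). In degron (-) cells IL8 went from 1.03 to 2.08 FPKM, a log2 difference of 0.60 (0.10 to 1.10, adjusted p = 0.168). Neither IL8 difference passed the threshold, although the 2 irradiated libraries at 48 h were above both unirradiated ones in each population.

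The remaining genes had smaller or less certain differences. CCL20 went from 0.396 to 1.43 FPKM in degron (++) cells, with a log2 difference of 0.78 (95% confidence interval 0.17 to 1.40, limma adjusted p = 0.18). CXCL1 went from 4.47 to 7.11 FPKM in degron (-) cells (log2 difference 0.60, 0.14 to 1.06, adjusted p = 0.137), but its difference in degron (++) cells was -0.08 (-0.54 to 0.38). LIF differed by 0.32 in degron (++) cells (0.13 to 0.50, adjusted p = 0.0964) and by 0.12 in degron (-) cells (-0.07 to 0.30, adjusted p = 0.453). CXCL2 differed by 0.34 (-0.22 to 0.90) in degron (++) cells and by 0.23 (-0.34 to 0.79) in degron (-) cells. None of these differences passed the threshold.

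The mean of both dose comparisons, which was added after the data were seen, gave 4 of the 8 tested genes higher after 4 Gy and 0 lower by limma, where 5.38% of all genes were higher and 1.82% lower (7.20% in all). These were IL6 (log2 difference 0.78, SE 0.094, adjusted p = 0.00321), IL18 (0.34, SE 0.035, adjusted p = 0.0019), IL8 (0.82, SE 0.156, adjusted p = 0.0182) and IL1A (0.58, SE 0.12, adjusted p = 0.0238). IL6 and IL18 passed under every alternative run. The IL8 call was lost, with adjusted p between 0.0525 and 0.0704, without replicate 2 at 0 Gy of either population, either irradiated degron (++) library at 48 h, or irradiated degron (-) replicate 2 at 48 h. The IL1A call was lost, with adjusted p between 0.0630 and 0.0775, without either unirradiated degron (++) library, unirradiated degron (-) replicate 1, or either irradiated degron (-) library at 48 h. In degron (++) cells IL8, CCL20, IL6, LIF, IL1A and IL18 were higher in all 4 irradiated libraries, at either time, than in both unirradiated ones. Of all tested genes 15.2% shared this order. CCL20 passed the filter only through irradiated degron (++) libraries, so its place in the order carries no weight. In degron (-) cells the same order held for CXCL1, IL8, IL6, IL1A and IL18, against 12.9% of all tested genes.

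**Figure D3:**
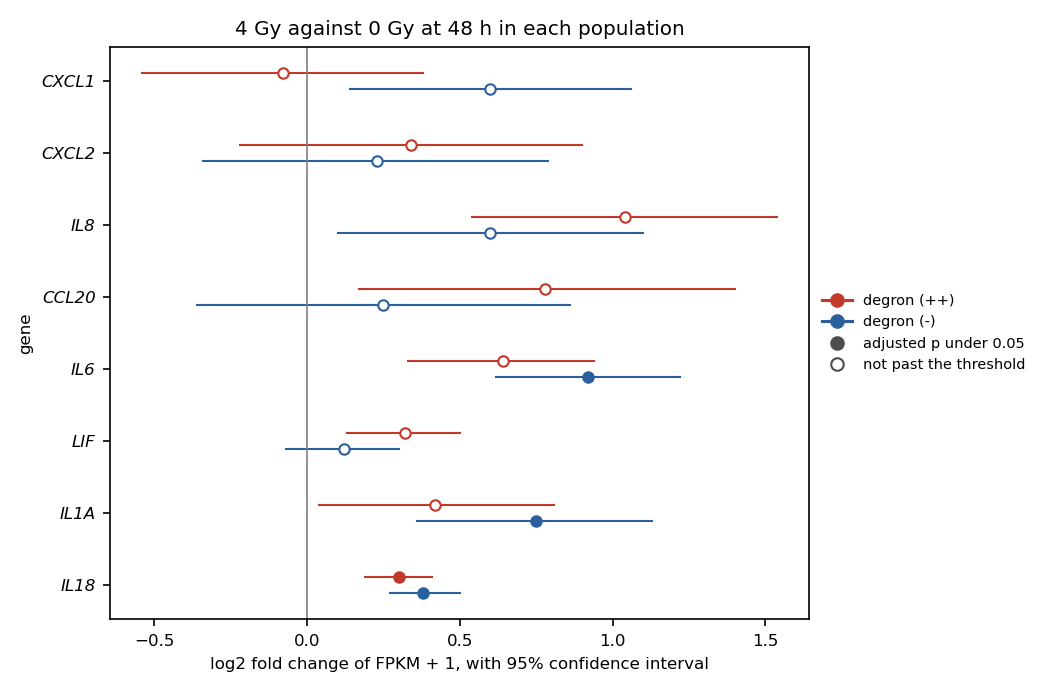
Log2 difference of FPKM + 1 between 4 Gy and 0 Gy at 48 h (horizontal axis) for the 8 tested genes (vertical axis) in degron (++) and degron (-) cells, with 95% confidence intervals from limma. Filled points have an adjusted p under 0.05, namely IL18 in both populations and IL6 and IL1A in degron (-) cells. All values except that of CXCL1 in degron (++) cells lie right of 0.

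Whether the response to dose differed between populations was tested with an interaction term. By limma 0 of the 8 genes passed, against 0.0772% of all genes, and 1 had an unadjusted p under 0.05, against 13.6% of all genes. That gene was CXCL1, with a difference between the dose effects (degron (++) minus degron (-)) of -0.68 (95% confidence interval -1.33 to -0.03, adjusted p = 0.35). For IL6 the difference was -0.28 (-0.71 to 0.15) and for IL18 -0.09 (-0.25 to 0.07), and for IL8 it was 0.44 (-0.27 to 1.15). The interval of IL8, which had no dose call in either population, lay mostly above 0. That of IL6 lay mostly below 0, and both included 0. A call in 1 population alone, as for IL6, thus does not show that the populations responded differently.

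Between 30 h and 48 h after 4 Gy few of the genes differed. In degron (++) cells 0 of the 8 passed by limma, where 1.21% of all genes did, and 2 had an unadjusted p under 0.05, against 15.8% of all genes. The pairs of libraries did not overlap for 5 of the 8, where 44.3% of all genes did not, and for 3 of the 8 in degron (-) cells, where 55% did not. In degron (-) cells 1 rose, where 6.01% of all genes rose and 7.18% passed in all. This was IL6, which rose from a mean of 4.98 to 9.34 FPKM with a log2 difference of 0.78 (SE 0.133, adjusted p = 0.0108). The adjusted p was 0.0743 without 30 h replicate 1 and 0.0707 without 48 h replicate 2. In degron (++) cells the IL6 difference was 0.36 (95% confidence interval 0.06 to 0.66, adjusted p = 0.239). IL1A was higher at 48 h than at 30 h by 0.35 (-0.03 to 0.74) in degron (-) cells and lower by a log2 difference of -0.42 (-0.80 to -0.03) in degron (++) cells, neither past the threshold. The 4 Gy and 48 h libraries enter both this and the dose comparison, so these values are not independent. An interaction of time and population passed for 0 of the 8 genes by limma, against 3.23% of all genes, and the 1 gene with an unadjusted p under 0.05 was IL1A (-0.77, adjusted p = 0.137), where 17.9% of all genes had one.

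Genes that receive or control these signals were described by lists. The lists are short, and whether the count of a list differs from the share of all genes was not tested. Each count in the mean of the 3 conditions stands against 42.1% of all tested genes higher, 44.6% lower and 86.7% past the threshold in all, so that a list with about equal numbers in both directions was near that share. Of 11 receptor genes, 5 passed the filter. CXCR2, the receptor of CXCL1, CXCL2, CXCL3 and CXCL5, was listed at 0 in all 12 libraries, and CXCR1, CCR6, IL1R2, IL18R1 and IL18RAP were below the filter. In the mean of the 3 conditions 1 receptor was higher and 3 were lower in degron (++) cells. IL1R1, the signalling receptor of IL-1, was lower (log2 difference -1.18, limma adjusted p = 1.61e-08), as was the IL-6 receptor chain IL6R (-0.78, adjusted p = 2.93e-07). IL1RAP, the co-receptor that IL1R1 needs, was higher (1.10, adjusted p = 7.67e-10). The shared chain IL6ST was the other lower receptor, by a log2 difference of -0.13. Its ranges overlapped, at 20.5 to 24.5 FPKM in degron (++) and 20.9 to 27.0 in degron (-) cells. LIFR had 7.15 to 8.38 and 7.32 to 8.36 FPKM. Under the alternatives the number of lower receptors was 1 to 4.

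Of the subunit and kinase genes of NF-kB, more were lower than higher in degron (++) cells in the mean of the 3 conditions. The lists hold only 5 and 4 genes, and 44.6% of all tested genes were lower. Of 5 subunits 3 were lower and 1 higher, with a median log2 difference of -0.41 against -0.02 over all genes. NFKB2, the p100 and p52 subunit, was lower by a log2 difference of -0.97 (limma adjusted p = 6.27e-09), its partner RELB by -0.73 (adjusted p = 2.36e-07) and RELA by -0.41 (adjusted p = 1.11e-07). Of 4 kinases 3 were lower and 1 higher. MAP3K14 (NIK), which starts the NFKB2 branch, differed by -0.77 (adjusted p = 6.16e-08), IKBKG (NEMO) by -0.48 (adjusted p = 0.000249), and IKBKB (IKK beta) was higher by 0.63 (adjusted p = 8.85e-07).

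Of 8 inhibitors and co-factors of NF-kB, 3 were higher and 4 lower. The inhibitor NFKBIB ranged from 38.8 to 43.5 FPKM in degron (++) and from 182 to 205 in degron (-) cells (log2 difference -2.17, limma adjusted p = 9.14e-12), and NFKBIE differed by -1.41 (adjusted p = 1.7e-08). NFKBIZ, an atypical IkB protein that acts in the nucleus and is known to be needed for IL6 transcription in some cells, was higher by 0.91 (adjusted p = 1.8e-07). Of 7 other NF-kB target genes 6 were lower and 1 higher, with a median log2 difference of -1.31. BCL2A1, a survival gene, was listed at 0 in all degron (++) libraries and was 18.1 to 29.6 FPKM in degron (-) cells. TRAF1 was lower by a log2 difference of -2.00 (adjusted p = 4.27e-10), and BIRC3 (cIAP2) by -1.99 (adjusted p = 6.2e-10).

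Of 16 other secreted cytokines and chemokines 11 were tested, 4 higher and 5 lower. The monocyte chemokine CCL2 was 2.13 to 7.34 FPKM in degron (++) and 119 to 202 in degron (-) cells (log2 difference -4.72, limma adjusted p = 4.03e-09). CX3CL1 was at most 0.028 FPKM in degron (++) and 23.9 to 42.5 in degron (-) cells. CXCL16 was higher in degron (++) cells (1.87, adjusted p = 6.8e-10). The lowest CCL2 value in degron (-) cells was above the highest IL18 value of that population, 58.4 FPKM.

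The genes that process or oppose IL-1 family proteins were mostly higher in degron (++) cells. Of 14 genes 11 were tested, 8 higher and 3 lower, with a median log2 difference of 0.87. CASP1, the caspase that cleaves the IL-18 precursor, had 13.6 to 17.0 FPKM in degron (++) and 1.99 to 3.60 in degron (-) cells (log2 difference 2.12, limma adjusted p = 1.26e-10), and CASP4 was higher by 1.81 (adjusted p = 4.84e-11). PYCARD (ASC), the adaptor that brings caspase-1 into the inflammasome, was lower (-2.64, adjusted p = 2.52e-10), at 8.51 to 13.3 against 63.9 to 73.0 FPKM. Of 12 genes of gp130 signalling 10 were tested, 5 higher and 5 lower. IL11RA differed by -2.78 (adjusted p = 7.86e-10) and the feedback inhibitor SOCS3 by -1.16 (adjusted p = 2.72e-08). Under the alternatives the number of lower genes was 3 to 4 of the subunits, 3 of the kinases and 6 of the other NF-kB targets, and the number of higher genes was 5 to 9 of the IL-1 processing list.

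Of 61 list genes tested, 7 rose and 0 fell at 48 h in degron (++) cells by limma, where 1.42% of all genes rose, and 18 rose and 0 fell in degron (-) cells, where 3.85% rose. At an unadjusted p under 0.05, 16 were higher and 4 lower in degron (++) and 31 higher and 0 lower in degron (-) cells, where 10.2% and 13.1% of all genes were higher and 7.46% and 7.82% lower. These counts moved with each library. Without 1 of the 4 libraries compared the number that rose was 0 or 1 in degron (++) cells (0 and 1 without 0 Gy replicate 1 and 2, 1 and 0 without 4 Gy replicate 1 and 2). In degron (-) cells it was 7 and 5 without 0 Gy replicate 1 and 2, and 6 and 4 without 4 Gy replicate 1 and 2. The following genes were chosen after their values were seen. NFKB2 rose by a log2 difference of 0.47 in degron (++) (adjusted p = 0.0156) and 0.35 in degron (-) cells (adjusted p = 0.0177). The feedback inhibitors NFKBIA (IkB alpha) and TNFAIP3 (A20) rose in both populations, NFKBIA by 0.27 (adjusted p = 0.0373) and 0.30 (adjusted p = 0.0119), and TNFAIP3 by 0.57 (adjusted p = 0.014) and 0.48 (adjusted p = 0.00919). The adhesion gene ICAM1 rose by 0.27 (adjusted p = 0.0268) and 0.58 (adjusted p = 0.000637), and the cytokine IL32 by 0.87 (adjusted p = 0.0248) and 0.85 (adjusted p = 0.0119). IL1B, the secreted counterpart of IL1A, rose in degron (-) cells by 0.69 (adjusted p = 0.0474). In degron (++) cells only 2 of the 61 list genes, MAP3K14 and IL32, rose when each library was rescaled to the same sum, against 9 in degron (-) cells. When only the 4 libraries compared were fitted, 0 passed in either population.

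**Figure D4:**
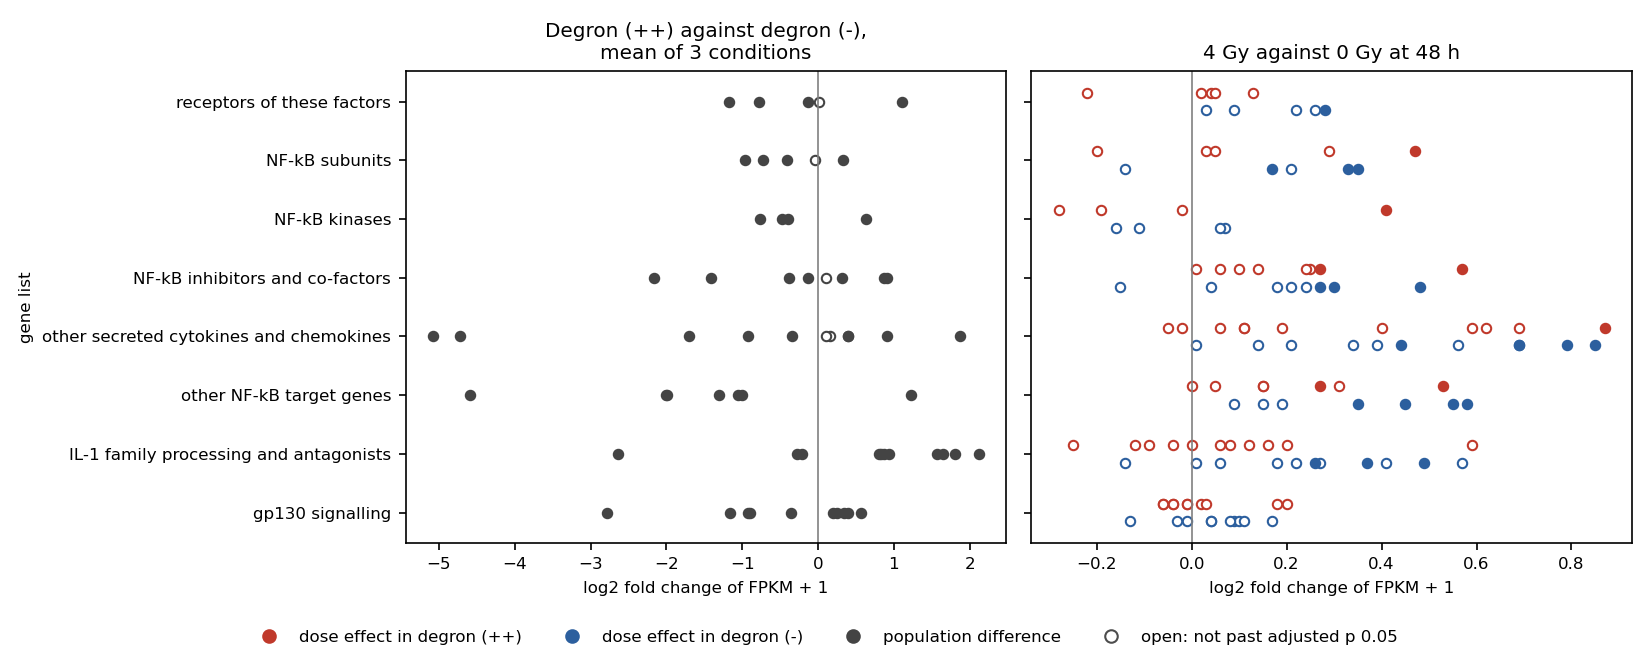
Log2 difference of FPKM + 1 (horizontal axes) for each tested gene of 8 lists (vertical axis), on the left between degron (++) and degron (-) cells in the mean of 3 conditions, on the right between 4 Gy and 0 Gy at 48 h in each population. Each point is a gene, and open points did not pass an adjusted p of 0.05. The other NF-kB targets lie mostly left of 0 in the left panel, and all filled points in the right panel lie right of 0.

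The genes whose log2(FPKM + 1) followed each cytokine most closely were found by Pearson correlation over the 12 libraries. Since the populations differ in most genes, a high value can arise from that split alone and is given as a description only. For CXCL1 the closest genes were PPP1R18, TIAM2 and CDCP1 (0.992 to 0.991). For CXCL2 they were RDH11, DUS3L and PLA2G6 (0.982 to 0.980). IL6 was followed most closely by ANKRD10, MGP and GPRC5A (0.991 to 0.990). The closest to LIF were CYR61, SQSTM1 and SH2D5 (0.982 to 0.978), and to IL18 POLB, IRS2 and NDFIP2 (0.996 to 0.994). IL1A was followed by MARCH4 and IL1B (0.962 for each). IL8 and CCL20 had weaker neighbours, IRGQ, LAPTM4A and MOK for IL8 (0.865 to 0.847) and PRKAB2, GTF2B and GGH for CCL20 (0.896 to 0.875). Among the tested cytokine genes themselves, CXCL1 and CXCL2 had a correlation of -0.940, IL6 and IL18 of 0.964, and IL6 and LIF of -0.776.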

How the data were processed

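RNA was prepared with miRNeasy and TruSeq stranded mRNA kits from the PANC-1 cells. The authors deposited FPKM values per gene symbol, with 1 file for each library. The submitters' processing notes name TopHat2 2.1.1, Bowtie2 2.2.8, SAMtools 0.1.18, Cuffdiff 2.2.1 and hg19, and the annotation and read length are not given in the sources used here. Without counts the depth is unknown, and no counting interval was set.

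Values were tested as log2(FPKM + 1) with limma 3.58.1 (R 4.3.3), with 6 group means over all 12 libraries, eBayes with trend, genes with at least 1 FPKM in at least 2 libraries (12946 of 23284) and Benjamini-Hochberg adjusted p under 0.05 over all of them. The fit was tested on simulated data. Promoters came from RefSeq (GRCh38.p14) and shared stretches from GENCODE release 29, whereas the files use hg19, so no coordinate was carried between them. Python 3.11.15, numpy 2.4.6, pandas 2.3.3, scipy 1.17.1 and matplotlib 3.10.9 were used. The members and lists were chosen with earlier results of these data known. Named genes are all 10 cytokine genes, up to 3 genes per list with the largest population difference in the mean of the 3 conditions, and the 3 genes most correlated with each tested member. Beyond this rule, list genes with a change after irradiation were picked with their values in view. Some genes that this rule selects are not reported here. Alternatives were a pseudocount of 0.1, a filter at 5 FPKM or none, quantile normalization, rescaling to equal sums (TPM) or without MIR622, summing CXCL1, CXCL2 and CXCL3, a block for the replicate number, eBayes without trend, only the libraries compared, and leaving out each library. The mean of both dose comparisons was added after the data were seen.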

Additional observations from a re-analysis of the deposited data

Results flagged for a closer look

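IL1A between 30 h and 48 h after 4 Gy was flagged because both degron (++) libraries at 48 h (4.75 and 3.05 FPKM) were below both at 30 h (6.06 and 4.86), whereas both degron (-) libraries at 48 h (2.85 and 2.73) were above both at 30 h (1.77 and 2.17). The difference between the time effects, tested by limma's interaction term, was -0.77 on the log2 scale (standard error 0.239, 95% confidence interval -1.31 to -0.22). It did not pass the threshold after Benjamini-Hochberg adjustment (adjusted p = 0.137), and its cause was not tested.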

How the results depend on the processing

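Of 1340 values of the cytokine genes recomputed under alternatives, 1274 kept their call. Many of these had not passed to begin with, among them 140 of 140 in each interaction and 108 of 108 for time in degron (++) cells. The share is thus no measure of how well the calls held. The dose calls of IL18 in degron (++) and of IL1A in degron (-) cells were lost under most of their alternatives. With a filter at 5 FPKM, only CXCL1, IL6, LIF and IL18 were still tested, and all of these kept their population calls in every condition. Between populations, the number of the tested genes called was therefore 4 in place of 6 at 0 Gy. It was 4 in place of 7 at 4 Gy and 48 h, and 4 in place of 8 in the mean of the 3 conditions. For dose in degron (++) cells (1 in the report) the number called was 2 with the filter at 5 FPKM. It was 0 with TPM rescaling, rescaling without MIR622, eBayes without trend, the replicate block and only the libraries compared. With only the libraries compared, which leaves fewer samples, it was 0 in place of 3 for dose and 0 in place of 1 for time in degron (-) cells. The sum of CXCL1, CXCL2 and CXCL3 reversed the direction of CXCL2, to -0.11, -0.72 and -0.40 in the 3 conditions and -0.41 in their mean, by construction, since CXCL1 enters it. Leaving out 1 library gave 6 to 6, 6 to 6, 5 to 7 and, for the mean, 7 to 8 called genes between populations, 0 to 0 for dose and 1 to 2 for dose in degron (++) and degron (-) cells, 0 to 0 and 0 to 1 for time, 2 to 4 for the mean of both dose comparisons and 0 to 0 for both interactions. Other causes were not tested. With the replicate number as a block, IL18 (adjusted p = 0.052) lost its dose call in degron (++) and IL1A (adjusted p = 0.0675) in degron (-) cells. The numbers were not taken as pairs, since same-numbered libraries correlated in their deviations by -0.0381 to 0.122 over 15 pairs of groups (median 0.0404), with 2 over 0.1. FPKM without counts limit what can be said of CXCL3, CXCL5 and CCL20, and of CXCL1 in degron (++) cells, where values were near 0.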
